A study of Rattus norvegicus with 59 samples.

Results

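The 5 genes Lipe, Dgat2, Plin1, Acsm5 and Slc7a10, known for ties to fat storage or fat cells, were followed in lung RNA of rats after a short inhalation of crystalline silica. They had been picked by name, with results of these data known, so their differences between silica and air lungs are given as a description and carry no test. All 5 genes had an entry among the 2887 complete gene entries of the table, and 4 of them belonged to the 1278 entries tested, which had 4 or more libraries with a value of at least 1 FPKM. FPKM scales the fragments of a gene to the length of its transcript and to all fragments mapped in that library. Plin1 did not reach that level.

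The rats were male Fischer F344 animals, bought at 3 months of age and exposed whole-body for 6 hours a day on 5 days. One set inhaled silica at 15 mg/m3 and the other inhaled air alone. Lungs were taken 1, 3 and 6 months after exposure and then at 9, 12 and 18 months, with 5 rats per group except for 4 in the air group at 9 months, and each rat gave 1 library. That made 30 silica libraries and 29 air libraries. All RNA came from a piece of whole lung, so fewer cells of a type and less RNA per cell cannot be told apart in any value below.

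Fat is stored as triglyceride in lipid droplets. Dgat2 adds the last acyl chain in triglyceride synthesis, Plin1 coats the droplets of fat cells and controls the access of lipases, and Lipe encodes hormone-sensitive lipase, which splits stored glycerides and cholesteryl esters. Acsm5 belongs to the family of mitochondrial enzymes that activate medium-chain fatty acids, and Slc7a10 encodes Asc-1, a transporter of small neutral amino acids found in brain and on the surface of white fat cells. In lung, alveolar type 2 cells use fatty acids to make surfactant, and the lipofibroblasts of rodent lung hold lipid droplets.

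Start regions are shown as a description, for those genes that could be matched. Of the 3 genes that were lower after silica, Acsm5 and Slc7a10 are among them and Lipe is not. Promoters of 3 of the 5 genes were matched in RefSeq, assembly GRCr8, each running from 250 bases before to 50 bases after the gene's start. Lipe and Dgat2 were not matched. Capitals mark every match, on either strand, to 3 motifs that do not overlap there. The first is AGGTCA, the core letters of nuclear receptor sites, which reads TGACCT on the opposite strand. The second is CCAAT, the CCAAT box, which reads ATTGG on the opposite strand. The third is GGGCGG, known as the GC box, which reads CCGCCC on the opposite strand.
Acsm5: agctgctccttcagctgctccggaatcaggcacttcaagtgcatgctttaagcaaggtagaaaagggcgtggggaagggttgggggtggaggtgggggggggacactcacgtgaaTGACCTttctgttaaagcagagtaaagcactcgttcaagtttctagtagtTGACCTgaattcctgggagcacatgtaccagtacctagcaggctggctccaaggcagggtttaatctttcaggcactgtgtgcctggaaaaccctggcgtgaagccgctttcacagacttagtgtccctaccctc
Slc7a10: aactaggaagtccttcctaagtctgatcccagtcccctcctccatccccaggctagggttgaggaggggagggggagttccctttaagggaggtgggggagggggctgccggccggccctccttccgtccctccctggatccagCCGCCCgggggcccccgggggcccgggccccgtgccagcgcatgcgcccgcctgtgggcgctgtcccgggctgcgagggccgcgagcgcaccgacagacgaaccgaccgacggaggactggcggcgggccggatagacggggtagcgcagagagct
Plin1: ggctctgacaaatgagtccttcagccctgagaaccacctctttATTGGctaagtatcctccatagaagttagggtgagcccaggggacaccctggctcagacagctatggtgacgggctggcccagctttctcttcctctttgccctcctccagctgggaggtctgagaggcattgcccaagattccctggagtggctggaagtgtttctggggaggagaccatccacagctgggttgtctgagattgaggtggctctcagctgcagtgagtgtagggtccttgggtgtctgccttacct
The Acsm5 region lies at chr1:183302259-183302558 on the plus strand and holds AGGTCA 2 times. The Slc7a10 region, chr1:96965872-96966171 on the plus strand, holds GGGCGG 1 time. The Plin1 region, chr1:143086099-143086398 on the minus strand, holds CCAAT 1 time. Of 33465 promoters of the same length, 16.18% hold AGGTCA, 33.07% hold GGGCGG and 37.5% hold CCAAT. The Slc7a10 start region was rich in G and C, at 72.33% against a median of 51.67% over all promoters, with 27 CpG against a median of 7. The Acsm5 region had 53.0% and 6 CpG, and the Plin1 region had 56.0% and 1 CpG. No 2 of the 3 shown regions shared a motif, and a match here is a description of letters only.

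Plin1, the member that defines fat cells, was nearly absent. It was listed at 0 in 18 of 30 silica libraries and 14 of 29 air libraries. Its highest values were 0.688 FPKM in air replicate 5 at 12 months, 0.258 FPKM in silica replicate 3 at 12 months and 0.127 FPKM in silica replicate 1 at 9 months, and no other library passed 0.0545 FPKM. The heart muscle gene Tnni3 was at 20.1, 16.9 and 19.7 FPKM in these 3 libraries, ranks 8, 10 and 9 over all libraries. In the other 56 it had a median of 5.69 FPKM and a range of 0.192 to 86.7 FPKM. Libraries with more Tnni3 thus had Plin1 at 0.0545 FPKM or lower. Csrp3, another muscle gene, ranked 21, 1 and 4 in the same 3 libraries. Of 28 other fat cell genes listed, 2 had an entry in the deposited values, which cover only part of the genome. No values of Adipoq, Lep or Fabp4 were analysed, so the next statement rests on Plin1 alone. With Plin1 at or near 0 in nearly every library, the data go against reading the set as a sign of fat cells, and it is described below by the names of its genes. The alveolar type 2 genes Napsa and Lpcat1, which mark lung, averaged 133 and 82.2 FPKM in silica libraries and 83.3 and 50.8 FPKM in air libraries.

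Of 59 libraries, 4 stood nearer to the mean profile of the other exposure at their own time, by the root mean square log2 distance over tested genes. They were silica replicate 2 at 3 months, silica replicates 2 and 3 at 12 months and air replicate 5 at 1 month. The widest gap belonged to silica replicate 3 at 12 months, at 0.482 from the other silica libraries and 0.355 from the air libraries. The members' 12-month differences, the called correlations between members and those with their most alike genes are given with and without it. The deposited values carried no read totals. The lowest FPKM steps gave relative depths that differed 5.24-fold between libraries, with 63.7% of those values within 0.1 on the log2 scale of 1 step. Pairs of libraries within a group correlated at 0.912 to 0.983, and none held identical values.

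Dgat2 was the member that was higher after silica. Over all times its lowest, median and highest values were 5.50, 12.2 and 19.3 FPKM in silica libraries and 5.18, 6.63 and 9.13 FPKM in air libraries. Group means in silica lungs were 9.44 ± 0.663, 10.3 ± 0.614, 12.4 ± 1.34, 14.8 ± 2.03, 14.4 ± 5.42 and 13.4 ± 1.66 FPKM at the 6 times from 1 to 18 months (SD, n = 5 each). In air lungs they were 6.81 ± 0.448, 6.48 ± 0.859, 6.33 ± 0.705, 6.32 ± 0.805, 7.27 ± 1.34 and 6.83 ± 0.410 FPKM at the same times (SD, n = 5, and n = 4 at 9 months). Silica and air libraries did not overlap at 1, 3, 6, 9 or 18 months. The share of all tested genes that were apart in this way was not counted. Nothing is read from such gaps here or for the other members below.

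At 9 months Dgat2 had 12.9, 12.4, 15.6, 17.0 and 16.2 FPKM in silica lungs, against 6.60, 7.29, 5.45 and 5.93 FPKM in air lungs. All 5 silica libraries lay above all 4 air libraries. At 12 months it had 19.3, 13.4, 5.50, 17.9 and 15.7 FPKM in silica lungs, against 5.95, 7.87, 7.39, 6.00 and 9.13 FPKM in air lungs. Silica replicate 3 lay below every air library of that time, and the other 4 silica libraries lay above all of them.

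On the log2 scale, with 0.5 added to each FPKM, the silica minus air difference in Dgat2 was 0.44, 0.64, 0.91, 1.17, 0.84 and 0.92 at the 6 times from 1 to 18 months, with a standard error of 0.15 (0.16 at 9 months). Its mean over the 6 times was 0.82 ± 0.064 (SE). Without silica replicate 3 at 12 months the difference at that time was 1.14 and the mean over times 0.87.

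Lipe, Slc7a10 and Acsm5 were lower in silica than in air lungs. The gap was widest at 9 and 12 months in Lipe and Slc7a10, and at 9 and 18 months in Acsm5. Lipe group means in silica lungs were 6.65, 7.20, 7.33, 6.42, 7.37 and 8.11 FPKM at the 6 times from 1 to 18 months. In air lungs they were 7.36, 7.74, 9.36, 9.75, 11.3 and 9.74 FPKM, so the wider gap went with higher air values. Lipe ranged over 5.21, 6.94 and 10.1 FPKM (lowest, median and highest) in silica libraries and over 6.47, 9.18 and 12.4 FPKM in air libraries. At 9 months it had 7.41, 7.68, 5.32, 6.46 and 5.21 FPKM in silica lungs, against 9.42, 9.27, 10.2 and 10.2 FPKM in air lungs. At 12 months it had 5.82, 8.17, 10.1, 6.33 and 6.45 FPKM in silica lungs, against 12.0, 12.4, 11.1, 10.6 and 10.2 FPKM in air lungs. The lipase gene did not overlap between silica and air at 6, 9 or 12 months, and at 12 months silica replicate 3 came within a small gap of the lowest air library.

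Slc7a10 spanned 3.31, 7.51 and 10.2 FPKM in silica libraries and 7.60, 9.91 and 12.0 FPKM in air libraries, again as lowest, median and highest. At 9 months the transporter gene had 5.17, 6.53, 4.13, 4.54 and 4.93 FPKM in silica lungs, against 9.17, 9.84, 8.69 and 9.34 FPKM in air lungs. At 12 months it had 4.12, 6.18, 9.82, 3.31 and 5.46 FPKM in silica lungs, against 9.57, 10.2, 8.91, 8.23 and 10.04 FPKM in air lungs. The silica and air libraries were apart at 9 months, and at 12 months silica replicate 3 alone lay inside the air range. By 18 months silica lungs averaged 7.72 ± 1.82 FPKM and air lungs 10.3 ± 1.24 FPKM (SD, n = 5 each), and the groups overlapped.

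Acsm5 spanned 1.52, 3.61 and 4.89 FPKM in silica libraries and 3.16, 4.98 and 6.25 FPKM in air libraries. At 9 months it had 3.93, 4.52, 2.96, 1.52 and 2.78 FPKM in silica lungs, against 6.08, 5.39, 4.88 and 5.42 FPKM in air lungs. At 12 months it had 3.49, 4.20, 4.89, 4.07 and 2.90 FPKM in silica lungs, against 4.85, 4.91, 5.54, 5.87 and 6.19 FPKM in air lungs. This acyl-CoA synthetase gene did not overlap between silica and air at 6, 9 or 18 months, and at 12 months silica replicate 3 lay just above the lowest air library.

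**Figure D1:**
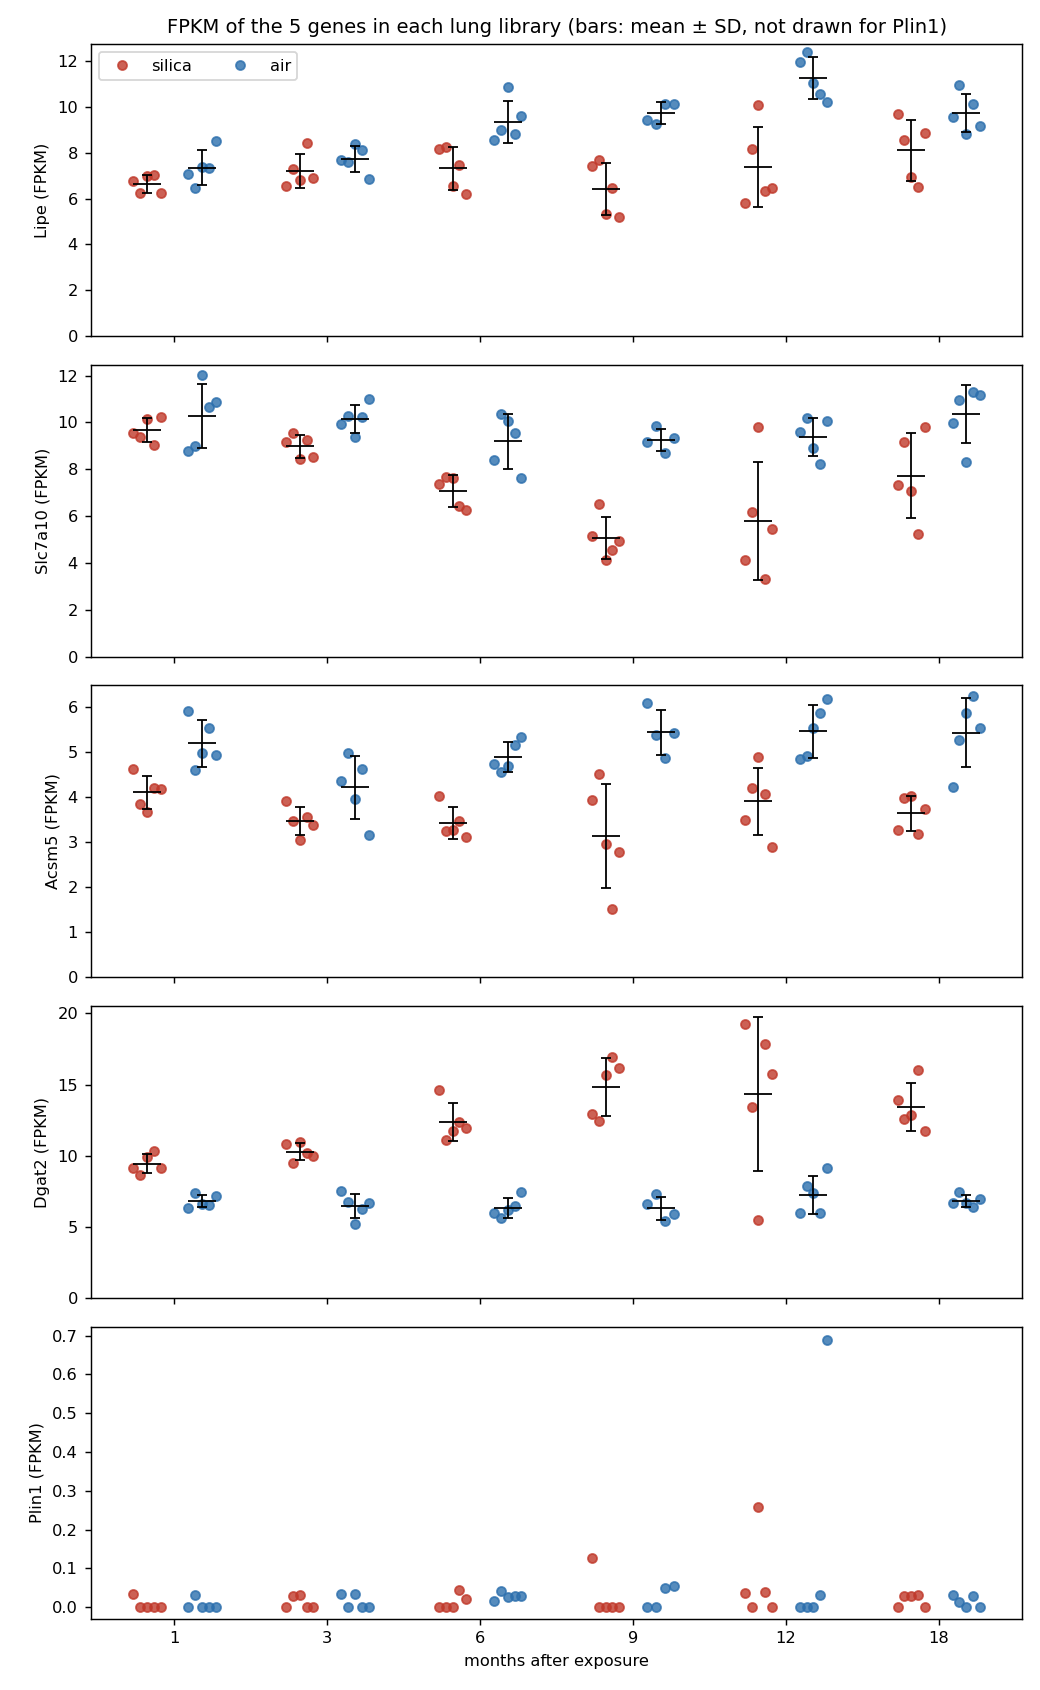
FPKM of Lipe, Slc7a10, Acsm5, Dgat2 and Plin1 in each library (points) at 1 to 18 months, silica left of air, with bars for the mean and SD of each group except for Plin1. Dgat2 lies higher in silica lungs, Lipe, Slc7a10 and Acsm5 have lower silica means at every time, and Plin1 stays below 0.7 FPKM in every library.

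The silica minus air log2 difference in Lipe was -0.13, -0.10, -0.34, -0.58, -0.60 and -0.26 at the 6 times from 1 to 18 months, with a mean of -0.34 ± 0.043 (SE). In Slc7a10 it was -0.07, -0.17, -0.35, -0.83, -0.74 and -0.42, with a mean of -0.43 ± 0.058 (SE). In Acsm5 it was -0.30, -0.24, -0.46, -0.77, -0.45 and -0.51, with a mean of -0.46 ± 0.054 (SE). The standard error at a single time was 0.10 for Lipe, 0.14 for Slc7a10 and 0.13 for Acsm5, and slightly more at 9 months. Without silica replicate 3 the 12-month differences were -0.72 in Lipe, -0.94 in Slc7a10 and -0.53 in Acsm5. The median difference over all 1278 tested genes was 0.03 for the mean over times.

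Members called by limma at an adjusted p under 0.05 numbered 0 of 4 at 1 month, where 8.84% of all tested genes were called, and 1 of 4 at 3 months, against 18.2%. They numbered 3 of 4 at 6 months (27.6%), 4 of 4 at 9 months (30.8%), 4 of 4 at 12 months (23.6%), 3 of 4 at 18 months (15.3%) and 4 of 4 for the mean over times (57.6%). With each time fitted alone the counts were 2, 1, 4, 4, 0 and 2 of 4 from 1 to 18 months. Those fits called 1 of all 1278 tested genes at 12 months and 130 at 18 months. The 0 of 4 at 12 months thus went with almost no calls among all genes. Shares for the other single-time fits are not given here. Nothing is read from these counts, since differences of this kind were known when the genes were picked. For the same reason no p is given for whether the differences changed with time.

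**Figure D2:**
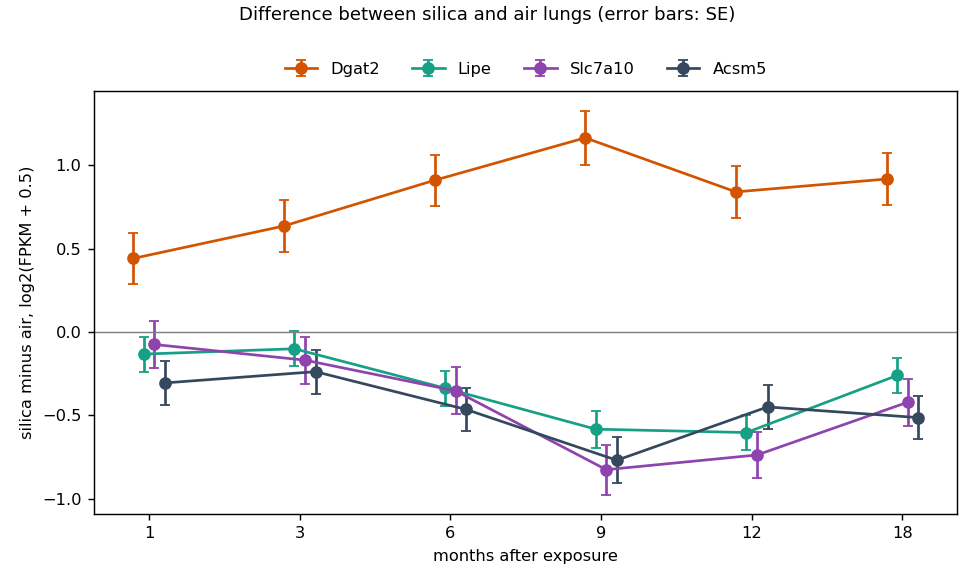
Silica minus air log2 difference, on log2(FPKM + 0.5), of Dgat2, Lipe, Slc7a10 and Acsm5 at each time, with standard errors. Dgat2 runs from 0.44 at 1 month to 1.17 at 9 months, and the other 3 genes reach their lowest points of -0.60 to -0.83 at 9 or 12 months.

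Markers of other cells moved with the exposure beside these genes. The 2 tested alveolar type 2 genes of the 10 listed, Napsa and Lpcat1, summed to 125 to 297 FPKM (median 213) in silica libraries and 121 to 153 FPKM (median 134) in air libraries. The 6 tested macrophage and neutrophil genes of 12 listed, with Cd177, Itgam and Tyrobp among them, summed to 83.0 to 234 FPKM (median 176) in silica libraries and 77.9 to 122 FPKM (median 98.4) in air libraries. The 2 tested endothelial genes of 10 listed, Ehd2 and Rasip1, summed to 54.9 to 86.9 FPKM (median 69.3) in silica libraries and 75.9 to 91.1 FPKM (median 83.1) in air libraries. The part of these cells in the members' values was not tested.

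The comparison of older with younger air lungs uses no silica library, though its air libraries also serve the silica differences. In air lungs Lipe had 9.59, 10.95, 8.82, 10.1 and 9.18 FPKM at 18 months, against 7.07, 6.47, 7.38, 7.33 and 8.53 FPKM at 1 month. All 5 of the older lungs lay above all 5 of the younger ones, and how many tested genes did the same was not counted. The log2 difference, 18 minus 1 month, was 0.38 ± 0.10 (SE), with a limma adjusted p of 0.00615. Leaving out each library in turn gave differences of 0.34 to 0.43 and adjusted p from 0.00234 to 0.0290.

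For the other members the 18 minus 1 month differences in air lungs were 0.05 ± 0.13 in Acsm5, 0.01 ± 0.14 in Slc7a10 and 0.005 ± 0.15 in Dgat2 (SE), with limma adjusted p of 0.836, 0.974 and 0.991. That made 1 of 4 members called, where 21.8% of all tested genes were called. Lipe in air lungs was highest at 12 months, at 11.3 ± 0.919 FPKM (SD, n = 5), against 9.74 ± 0.841 FPKM at 18 months, 9.75 ± 0.470 FPKM at 9 months (n = 4) and 7.36 ± 0.749 FPKM at 1 month. Over all 6 times its slope in air was 0.027 log2 units per month (limma adjusted p = 1.41e-04), with 1 of 4 members called against 25.4% of tested genes. Whether the age difference of Lipe differs from that of the other members was not tested.

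The rule for these genes asked whether they vary together between libraries. To take out the mean effect of exposure and time, each library's log2 value was set against the mean of its group. Rats of the same silica group may still differ in how far they responded. The members were also picked with their silica differences known. The part of such differences in the correlations was not tested. Pearson correlations over the 59 libraries were tested by permuting libraries within groups. The p-values were adjusted over 5102 pairs of a member with a tested gene. Lipe and Slc7a10 varied together, with r = 0.635 (permutation p = 0.00019, adjusted 0.00554) and a Spearman rho of 0.504 (adjusted permutation p = 0.0252). Both ran against Dgat2, with r = -0.533 for Lipe (permutation p = 0.00316, adjusted 0.0351) and r = -0.633 for Slc7a10 (permutation p = 0.00242, adjusted 0.0305). Across all 5102 pairs 10.5% were called.

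The pairs with Dgat2 rested on few libraries. Their rank correlations were -0.333 for Lipe and -0.296 for Slc7a10 (adjusted permutation p = 0.167 and 0.214). Without silica replicate 3 at 12 months r was -0.339 for Lipe with Dgat2 and -0.363 for Slc7a10 with Dgat2 (adjusted permutation p = 0.194 and 0.150). For Lipe with Slc7a10 it was 0.521 without that library (adjusted permutation p = 0.0431), and 0.509 without the 2 libraries farthest from the median of Lipe (adjusted permutation p = 0.0650). Without the 2 farthest libraries the Dgat2 pairs gave -0.307 with Lipe and -0.344 with Slc7a10 (adjusted permutation p = 0.261 and 0.190). Lipe with Dgat2 lost its call also without air replicate 3 at 3 months, silica replicate 2 or 5 at 9 months, any other single silica replicate at 12 months or silica replicate 4 at 18 months, with r from -0.542 to -0.484. Slc7a10 with Dgat2 lost it also without silica replicate 2 at 9 months, silica replicate 1, 2 or 5 at 12 months or silica replicate 4 at 18 months, with r from -0.642 to -0.601. Runs that left out libraries used 20000 permutations, against 100000 for the main values.

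Acsm5 was not called with any other member. Its r was 0.289 with Lipe, 0.271 with Slc7a10 and -0.300 with Dgat2 (adjusted permutation p = 0.316, 0.304 and 0.240). Its Spearman rho was 0.228 with Lipe, 0.192 with Slc7a10 and -0.180 with Dgat2 (adjusted permutation p = 0.401, 0.481 and 0.516).

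In silica libraries alone r was 0.727 for Lipe with Slc7a10, -0.634 for Lipe with Dgat2 and -0.825 for Slc7a10 with Dgat2 (adjusted permutation p = 0.0173, 0.0476 and 0.0130). Without silica replicate 3 at 12 months these were 0.613, -0.470 and -0.712 (adjusted permutation p = 0.0961, 0.254 and 0.0468). In air libraries alone the same pairs gave 0.294, -0.165 and 0.129 (adjusted permutation p = 0.651, 0.808 and 0.837). The difference between silica and air correlations was not tested. By time, r of Lipe with Slc7a10 was 0.424, -0.172, 0.327, 0.646, 0.861 and 0.692 at the 6 times from 1 to 18 months, and r of Slc7a10 with Dgat2 was -0.078, 0.204, -0.442, -0.470, -0.800 and -0.711, each over 10 libraries (9 at 9 months) and given with no test. Within groups the members' values had r between -0.116 and 0.0807 with relative depth. With the FPKM sum of a library without its highest entry, r was 0.438 for Dgat2, -0.218 for Slc7a10, -0.115 for Lipe and 0.0303 for Acsm5. The part of that sum in the correlations was not tested.

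**Figure D3:**
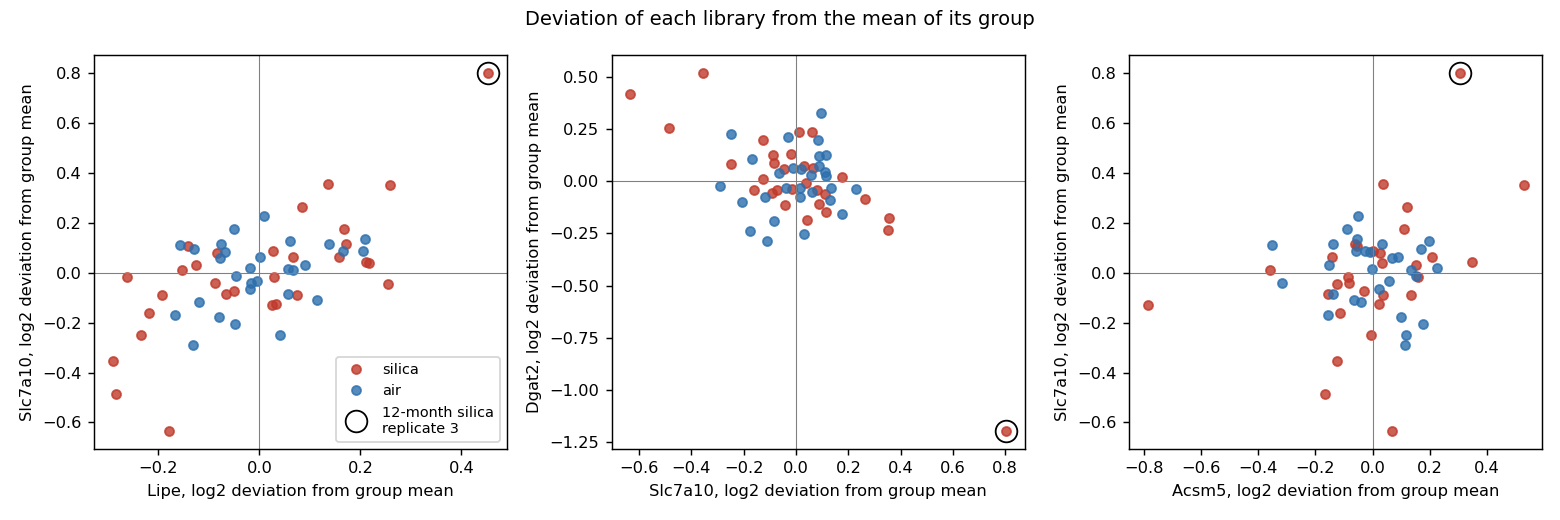
Deviation of each library from its group mean on log2(FPKM + 0.5) in 3 pairs, Lipe with Slc7a10, Slc7a10 with Dgat2 and Acsm5 with Slc7a10, for silica and air libraries (points). Lipe and Slc7a10 vary together (r = 0.635), Slc7a10 runs against Dgat2 (r = -0.633), and the circled silica replicate 3 at 12 months lies far from the other libraries in the first 2 pairs.

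Some genes followed the members more closely than the members followed each other. For each member the 3 named genes with the highest r within groups are given. Slc7a10 followed Lama2 (r = 0.827), which encodes the laminin alpha-2 chain of basement membranes, then Syne1 (0.788), a nuclear envelope protein, and Akap12 (0.788), a scaffold for protein kinase A. Lipe followed Prx (0.757), known from the myelin of nerve sheaths, Ltbp4 (0.711), a matrix protein that binds latent TGF-beta, and Akap12 (0.706). Mag, the other nerve sheath marker measured, was listed at 0 in 49 of the 59 libraries.

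Dgat2 followed Napsa (r = 0.821), the aspartic protease of alveolar type 2 cells, a call that was lost with quantile normalization (r = 0.450, adjusted permutation p = 0.0540), and the lysosomal enzyme genes Prcp (0.821) and Pld3 (0.809). Acsm5 followed Adam8 (0.708), a membrane metalloprotease, Vwa3a (0.642) and Cyp2f4 (0.639), a cytochrome P450. All 12 pairs had adjusted permutation p-values from 0.00134 to 0.00532, where 3.76% (Acsm5) to 16.2% (Dgat2) of tested genes were called with a member. They were chosen for their height among 1277 genes per member. Without silica replicate 3 at 12 months all 12 were called over the remaining libraries, with r from 0.557 to 0.746. In silica libraries alone all 12 were called, with r from 0.682 to 0.925. In silica libraries without that replicate 9 of 12 were called, and the calls lost were Dgat2 with Prcp (r = 0.623), Lipe with Akap12 (0.541) and Acsm5 with Cyp2f4 (0.683), with adjusted permutation p of 0.109, 0.150 and 0.0959. In air libraries alone 0 of 12 were called by the permutation test, with r from 0.277 to 0.787.

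**Figure D4:**
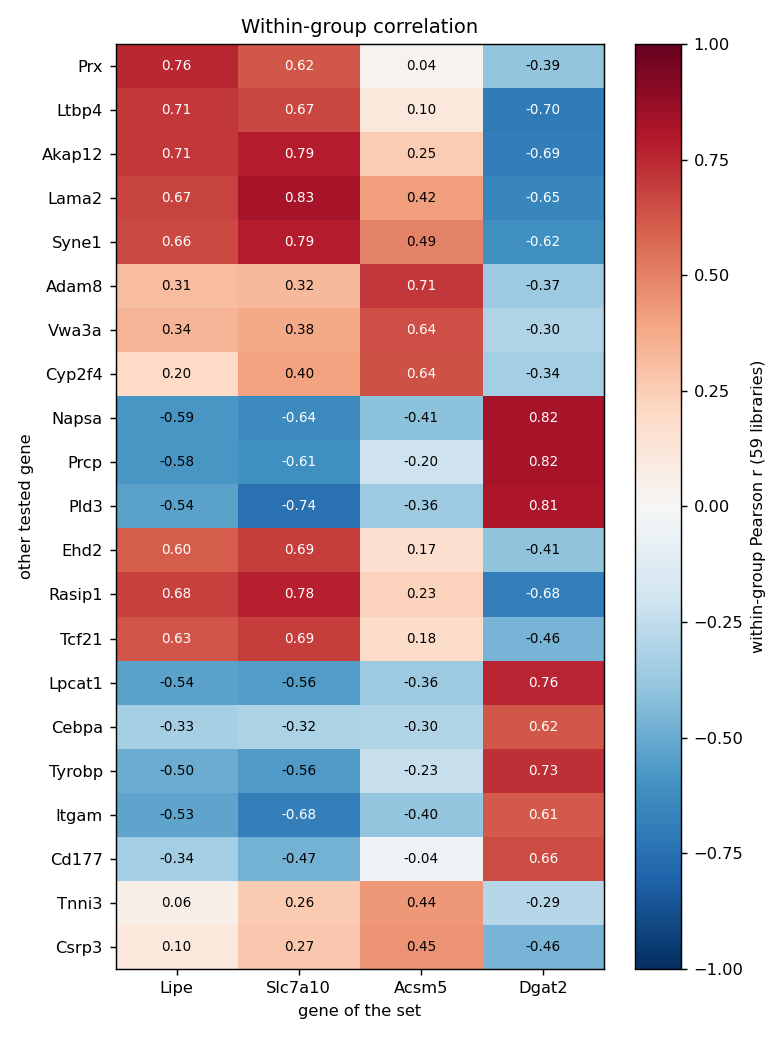
Pearson r within groups, over 59 libraries, of 4 members (columns) with their most alike named genes and with marker genes of other cells (lines of the map), from blue at -1 to red at 1. Genes in red with Lipe and Slc7a10, such as Lama2, are in blue with Dgat2, and Napsa shows the opposite, at 0.82 with Dgat2, -0.59 with Lipe and -0.64 with Slc7a10.

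The genes with the highest mean r over the 4 members were Syne1 (0.333), Lama2 (0.316), Arrb1 (0.301), Ndn (0.299) and Fxyd1 (0.296), and all 5 had a negative r with Dgat2. The endothelial gene Rasip1 had r of 0.68 with Lipe, 0.78 with Slc7a10 and -0.68 with Dgat2 (adjusted permutation p = 0.00235, 0.00134 and 0.00373). The other tested endothelial gene, Ehd2, had 0.60, 0.69 and -0.41 (adjusted permutation p = 0.00255, 0.00134 and 0.296), so its pair with Dgat2 was not called. Tcf21, a transcription factor of lung fibroblasts and lipofibroblasts, had 0.63 with Lipe, 0.69 with Slc7a10 and -0.46 with Dgat2. Its adjusted permutation p was 0.00286, 0.00255 and 0.107, so the pair with Dgat2 was not called. Of the 6 tested macrophage and neutrophil genes, 3 had a called r with Dgat2 (Tyrobp 0.73, Cd177 0.66, Cd33 0.65). Of the same 6, 2 ran against Lipe (Itgam -0.53, Cd33 -0.51) and 2 against Slc7a10 (Itgam -0.68, Cd33 -0.56). Of the 5 tested striated muscle genes, 2 were called with Acsm5 (Csrp3 0.45, Tnni3 0.44) and 1 against Dgat2 (Csrp3 -0.46). Whether any of those cells account for the members' shared variation was not tested.

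Of 13 tested genes on 9 lists of fat, amino acid transport and insulin pathways, 6 were higher and 4 lower in silica lungs for the mean over times, with a median difference of 0.08. Among all tested genes 37.5% were higher and 20.1% lower, with a median of 0.03. With median centring and with quantile normalization the share of all calls that were higher was 44.1% and 41.1%, against 65.1% without.

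In triglyceride synthesis the only other tested gene was Mogat2, an acyltransferase that feeds diacylglycerol to Dgat2. It was lower, at 0.710 ± 0.256 FPKM in silica and 0.880 ± 0.193 FPKM in air libraries (SD, n = 30 and 29), a log2 difference of -0.21 ± 0.069 (SE, limma adjusted p = 0.00891). In lipolysis the only other tested gene was Pde3b, the phosphodiesterase through which insulin restrains lipolysis, at -0.05 (limma adjusted p = 0.124). That gene was called after median centring, at -0.11, and after quantile normalization, at -0.10. Thrsp, of fatty acid synthesis, was at 0.13 (limma adjusted p = 0.398).

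In fatty acid oxidation 3 of 4 tested genes were higher and 1 lower, with a median of 0.24. Ucp2, a mitochondrial carrier, averaged 38.1 ± 5.43 FPKM in silica and 29.5 ± 5.49 FPKM in air libraries, a difference of 0.37 (limma adjusted p = 2.34e-08). Etfb, which carries electrons from acyl-CoA dehydrogenases, averaged 23.4 ± 3.18 FPKM in silica and 18.6 ± 2.07 FPKM in air libraries, a difference of 0.32 (limma adjusted p = 7.87e-09). Echs1 was higher by 0.15 (limma adjusted p = 1.49e-04), a call lost with quantile normalization at 0.0889, and Acadsb was lower, at -0.14 (limma adjusted p = 0.00131).

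Cebpa, a transcription factor of fat cells that alveolar type 2 and myeloid cells also use, was higher, at 15.9 ± 2.53 FPKM in silica and 11.3 ± 1.63 FPKM in air libraries (0.47, limma adjusted p = 1.67e-13). Cox8b, which is found in brown fat and in muscle, was lower, at -0.49 ± 0.18 (SE, limma adjusted p = 0.0180), and it was the only one of 5 tested striated muscle genes that was called. Summed muscle FPKM spread from 4.31 to 184 in silica libraries and from 6.94 to 137 in air libraries. Igf1r, the IGF-1 receptor, was lower, at 3.00 ± 0.413 FPKM in silica and 4.02 ± 0.622 FPKM in air libraries (-0.37, limma adjusted p = 2.58e-11). Akt2, a kinase of insulin signalling, was at 0.08 (limma adjusted p = 0.00471), and at -0.016 after quantile normalization (limma adjusted p = 0.523).

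Of the relatives of Acsm5 only Acsm1 could be tested, at -0.03 (limma adjusted p = 0.813). Acsm2a and Acsm3 stayed under 0.22 FPKM and Acsm4 was listed at 0 in all 59 libraries. Slc7a9, of the same transporter family as Slc7a10, was too low to test, at 0.112 FPKM in silica and 0.120 FPKM in air libraries on average. Slc1a5, a neutral amino acid transporter gene of another family, was higher, at 3.38 ± 0.657 FPKM in silica and 2.26 ± 0.398 FPKM in air libraries (0.49, limma adjusted p = 2.70e-12). Among marker lists, Ehd2 and Rasip1 of endothelium and Tcf21 of lipofibroblasts were lower, at -0.25, -0.33 and -0.29 (limma adjusted p = 1.56e-11, 3.26e-08 and 1.01e-05). Prx, from the nerve sheath list, was lower at -0.22 (limma adjusted p = 0.000657). Mag, the other measured gene of that list, was listed at 0 in 49 of the 59 libraries, so Prx is not read here as a nerve sheath marker. Both alveolar type 2 genes and all 6 macrophage and neutrophil genes were higher, with medians of 0.66 and 0.80. Of the lymph node B cell genes, Cd37 was at 0.06 (limma adjusted p = 0.360) and Cd22 at -0.12 (limma adjusted p = 0.110), and Cd22 was called after median centring, at -0.18, and after quantile normalization, at -0.15. The mesothelium gene Bnc1 was too low to test.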

How the data were processed

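Lung RNA of 59 rats was sequenced from ribosome-depleted, stranded total RNA libraries, per the labels' protocols. The authors deposited FPKM, 1 column per library. Per the submitters' processing notes, Cufflinks 2.1.1, TopHat2 2.0.9 and Bowtie2 2.2.9 were used, besides Trimmomatic 0.35 and bcl2fastq 2.19. The genome build was not given in the sources used here. Of 2888 entries, 1 was incomplete (31 of 59 values) and left out, 2061 matched RefSeq GRCr8 names, and 2046 of those lie on chromosome 1, so the table covers only part of the genome. FPKM sums ran from 12818 to 38613, and FPKM gives no counting error.

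Values were tested as log2(FPKM + 0.5) with limma 3.58.1 under R 4.3.3 (trended variance, 12 groups, Benjamini-Hochberg adjustment over the 1278 genes with 4 or more libraries at 1 FPKM or above, threshold 0.05). Changes of low genes are understated on this scale. Correlations used deviations from group means and 100000 permutations of libraries within groups. The alternatives other than rank correlation used 20000 permutations. Both were tested on simulated data. The members and lists were chosen with earlier results of these data known. Named list genes were those with the smallest p, up to 4 a list, and the likest genes were those with the highest r. Some genes were named outside that rule: Mag, Acsm2a, Acsm3, Acsm4, Slc7a9 and Bnc1 as untested list genes, the marker genes of longer lists, and the neighbouring genes after their values were seen. Alternatives were pseudocount, filter, median centring, quantile normalization, array weights, single-time fits, rank correlation, 1 exposure at a time and leaving out libraries. Libraries of a group are separate rats, and no batch was given in the labels.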

Additional observations from a re-analysis of the deposited data

How the results depend on the processing

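No paired analysis was possible because no number in the titles is shared by libraries of different groups. Genes called at 1 month were 113, against 65 with median centring and 198 with array weights. Array weights also gave 536 against 353 at 6 months, and 153 against 17 for whether the silica difference varied with time. Fits of 1 time alone gave 1 against 302 genes at 12 months and 130 against 196 at 18 months. All 4 members were among the genes without a 12-month call in that fit. Nothing is read from this, since such differences were known when the members were picked. The cause of the lower gene counts was not tested.

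Lipe with Slc7a10 lost its call in air libraries (r = 0.294), in silica libraries without replicate 3 of 12 months (0.613) and without the 2 farthest libraries (0.509). That setting without replicate 3 was chosen after seeing the data. Lipe with Dgat2 lost its call with Spearman (-0.333), with no filter (-0.533, adjusted permutation p = 0.0569), in air libraries (-0.165), in silica libraries without that replicate (-0.470) and without the 2 farthest libraries (-0.307). Slc7a10 with Dgat2 lost it with Spearman (-0.296), with no filter (-0.633, adjusted permutation p = 0.0531) and without the 2 farthest libraries (-0.344), and reversed to 0.129 in air libraries. With no filter more genes enter the adjustment. Leaving out each library gave 0.521 to 0.664 for Lipe with Slc7a10, -0.570 to -0.339 for Lipe with Dgat2 and -0.666 to -0.363 for Slc7a10 with Dgat2.

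List genes with a called r were 9 for Lipe, against 4 with Spearman, 0 in air libraries and 2 in silica libraries without that replicate. For Slc7a10 they were 10, against 6, 0 and 4 in these settings. For Dgat2 they were 11, against 7 with quantile normalization, 0 in air libraries and 4 in silica libraries without that replicate. For Acsm5 they were 3, against 1 with Spearman, with pseudocount 1 or with no filter, 6 with median centring, 5 with quantile normalization, 0 in air libraries and 0 in silica libraries without that replicate. Leaving out each library gave 4 to 10 for Lipe, 5 to 10 for Slc7a10, 6 to 14 for Dgat2 and 1 to 5 for Acsm5. It gave 44 to 136 genes called at 1 month (44 without air replicate 2, 66 without silica replicate 5), 163 to 258 at 3 months, 292 to 385 at 6 months, 319 to 412 at 9 months, 194 to 457 at 12 months (194, 457 and 196 without silica replicates 1, 3 and 4), 112 to 231 at 18 months (112 without silica replicate 4), 725 to 761 for the mean over times, 10 to 78 for variation with time and 202 to 301 for age in air.

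The quantile-normalized value of Akt2 was -0.016, against 0.08. The members' silica minus air differences for the mean over times kept their direction under every alternative run. Depth is known only relatively, so low values such as those of Plin1 carry no interval.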

Other observations

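The genes that stand next to the members in the RefSeq order of GRCr8, counting protein-coding genes only, were looked up after their values were seen. Slc7a10, which was lower after silica, stands between Cebpa, which was higher (0.47), and Lrp3, a lipoprotein receptor family gene, which was lower at -0.28 ± 0.048 (SE, limma adjusted p = 2.25e-06). Lipe, also lower, stands between Cnfn, listed at a mean of 0 FPKM, and Cxcl17, a mucosal chemokine that was higher by 0.65 ± 0.043 (SE, limma adjusted p = 3.39e-18) at a mean of 48.4 FPKM. Dgat2, higher after silica, stands between Uvrag, at -0.04 (limma adjusted p = 0.103), and Mogat2, which was lower at -0.21. Plin1, near 0, stands between Kif7, lower at -0.12 (limma adjusted p = 0.00392), and the peroxisome gene Pex11a, higher by 0.22 (limma adjusted p = 1.06e-05). Acsm5 stands between Pdilt, at a mean of 0.0033 FPKM, and Acsm2, which had no entry.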
